A study of Mus musculus with 14 samples.

Results

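Embryoid bodies (EBs), aggregates in which mouse embryonic stem cells (mESCs) differentiate spontaneously, were profiled by RNA sequencing to follow what a loss of DIS3L2, a 3′ to 5′ exoribonuclease that degrades uridylated RNAs, does to differentiation. The genes followed here are 8 endoderm transcription factors, Gata4, Gata6, Sox7, Sox17, Foxa1, Foxa2, Foxa3 and Hnf4a. They were taken by name from the 16181 genes of the deposited normalised table, and all 8 were found, counted and tested. The control line, shLacZ, stably expresses an shRNA against LacZ, and the knockdown line, shDis3l2, stably expresses an shRNA against Dis3l2. Both were sampled as undifferentiated mESCs in LIF and 2i (d0) and, after LIF and 2i were withdrawn and EBs were formed in hanging drops with serum, every other day from d2 to d12, for a total of 14 libraries of polyA RNA, 1 per line and day.

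GATA4 and GATA6 are zinc finger factors that specify primitive endoderm, the layer that surrounds an EB and gives rise to visceral and parietal endoderm. SOX7 and SOX17 are HMG box factors of the SOXF group, made in extraembryonic endoderm and, for SOX17, also in definitive endoderm. FOXA1, FOXA2 and FOXA3 are forkhead pioneer factors that open chromatin in endoderm, and HNF4A is a nuclear receptor that drives genes of secreted and transport proteins in visceral endoderm and liver. The same factors work elsewhere too, GATA4 and GATA6 in heart, SOX7 and SOX17 in endothelium, and FOXA1 and FOXA2 in notochord and floor plate.

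Total counts per library ranged from 7178712 (shLacZ d4) to 39888099 (shLacZ d0), and 3 reads, the detection floor used here, correspond to 0.0752 CPM (a count scaled to the total of its library) in the deepest and 0.418 CPM in the shallowest library. Dis3l2 (chromosome 1, 86703808 to 87050095 of GRCm38) was counted in shDis3l2 at 13.7%, 28.1%, 32.1%, 55.2%, 97.1%, 94.98% and 75.4% of its shLacZ level on the 7 days from d0 to d12. The libraries labelled shDis3l2 at d8 and d10 therefore had Dis3l2 within counting error of shLacZ (95% intervals of the ratio 0.837 to 1.13 and 0.788 to 1.15), and every difference between the lines on those days is a difference between the libraries so labelled. The 8 pluripotency markers summed at d0 to 4418 CPM (shLacZ) and 3457 CPM (shDis3l2), the 2 highest sums of the series, as the labels of undifferentiated cells state. The scaling of the libraries moved the median log2 ratio of all protein-coding genes most at d0, where it was -0.32 with library totals, -0.06 with TMM and 0.08 with DESeq2 size factors, and it was between -0.071 and 0.042 with these 3 scalings on the other days.

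Apart from Foxa3, whose lowest level in shLacZ was at d2, each of the 8 genes was at its lowest at d0 in both lines, and all were higher at d12 than at d0. Gata4 had the highest level per length of the 8 genes from d4 to d12 in shLacZ and at d4, d6, d10 and d12 in shDis3l2, where Gata6 was above it at d8. From d6 to d12 Gata4, Sox7, Sox17, Foxa2, Foxa3 and Hnf4a were lower in shDis3l2, at between 23.8% and 84.5% of the shLacZ level of the same day. Gata6 and Foxa1 were above shLacZ at d8 and below it at d12. In bulk RNA, fewer cells of a type and less RNA per cell cannot be told apart.

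**Figure D1:**
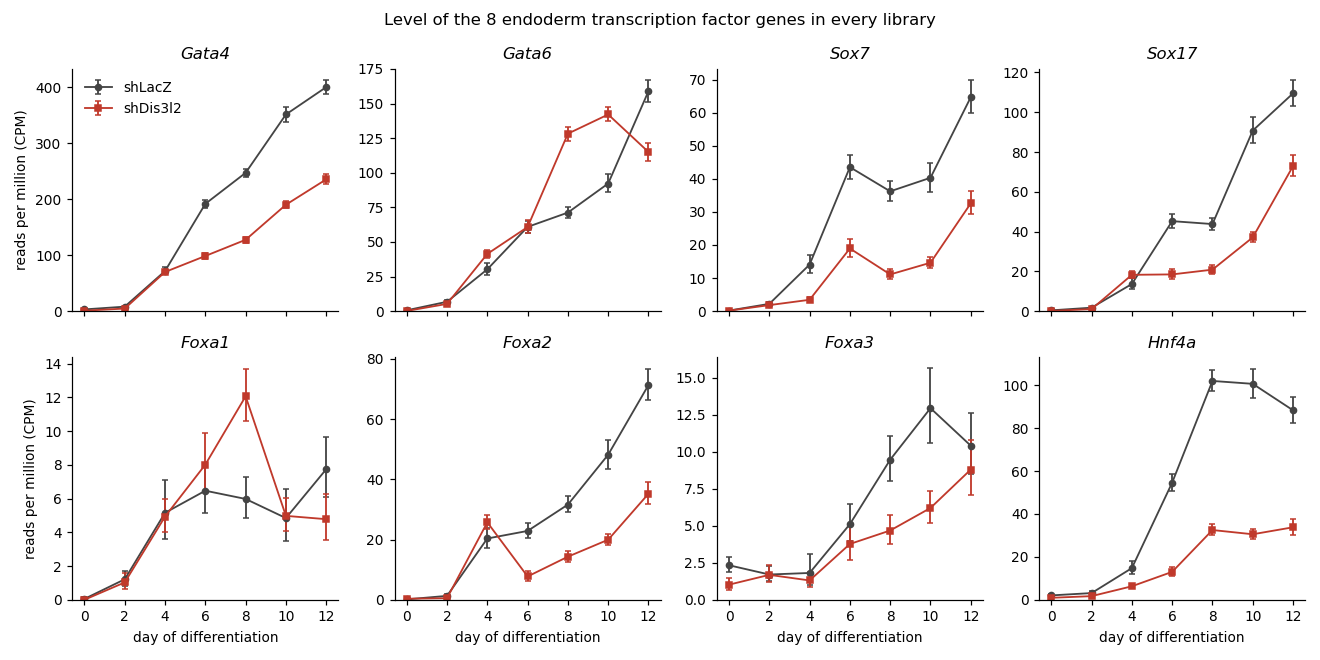
Level of each gene in every library, in CPM over all counted genes (y axis, from 0, scaled per panel) against the day of differentiation (x axis), for shLacZ (grey circles) and shDis3l2 (red squares); bars are 95% Poisson intervals of the count and there is 1 library per point. Gata4 ends at 400.0 (shLacZ) and 235 CPM (shDis3l2), Hnf4a is at 100.7 and 30.5 CPM at d10, and Gata6 crosses between d10 and d12.

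Gata4 (ENSMUSG00000021944) lies on the minus strand of chromosome 14, 63198922 to 63271692, and was counted over 3904 exonic bases. Its shLacZ levels, given here and for the other genes in the order of the 7 days from d0 to d12, were 3.11, 8.04, 71.6, 192, 247, 351 and 400.0 CPM. In shDis3l2 the same days gave 0.869, 4.63, 69.9, 98.5, 127, 190.0 and 235 CPM. The lines were level at d4, with a ratio of shDis3l2 to shLacZ of 0.977 (95% Clopper-Pearson interval 0.882 to 1.08), and from d6 onward the ratio stayed between 0.514 and 0.588. Each interval from d6 to d12 lay below 1. These intervals cover counting error only and compare 2 libraries, not the lines.

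Gata6 (ENSMUSG00000005836), on the plus strand of chromosome 18, 11052510 to 11085635, is counted over 3194 exonic bases and is among the earliest factors of primitive endoderm. In shLacZ it was at 0.627, 6.78, 30.2, 60.9, 71.2, 92.2 and 159 CPM. In shDis3l2 it was at 0.151, 5.23, 41.4, 60.8, 128, 142 and 115 CPM. Like Gata4, Gata6 was lower in shDis3l2 at d0 (ratio 0.241, 0.061 to 0.698, on 4 reads in shDis3l2) and d2 (0.771, 0.604 to 0.982). Unlike Gata4, Gata6 was higher in shDis3l2 at d4 (ratio 1.37, 1.18 to 1.596), d8 (1.80, 1.68 to 1.93) and d10 (1.54, 1.42 to 1.67), level at d6 (0.998, 0.899 to 1.11) and lower at d12 (0.723, 0.671 to 0.780). From d10 to d12 it went up 1.72-fold (1.58 to 1.88) in shLacZ and down to 0.809 of its level (0.757 to 0.865) in shDis3l2. The processed transcript 1010001N08Rik shares exonic bases with Gata6 on the opposite strand, and no strand setting is given for the counting, so their reads cannot be told apart. At d8 it had 72 reads (shLacZ) and 232 reads (shDis3l2), beside 1204 and 2521 of Gata6, and at d10 it had 42 and 321, beside 762 and 3001 of Gata6.

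The balance of the GATA pair was compared per length. The Gata6 to Gata4 ratio was 0.388, 0.353, 0.321 and 0.486 in shLacZ from d6 to d12, and 0.754, 1.23, 0.914 and 0.597 in shDis3l2. The ranges did not overlap, and the ratio was higher in shDis3l2 on 4 of 4 days by a mean of 1.14 on the log2 scale. A two-sided exact permutation test of the line labels over these 8 libraries gave p = 0.0286, the smallest it can give, and p = 0.143 after Benjamini-Hochberg adjustment over the 5 ratios examined. With the labels exchanged only within a day, the exact permutation p was 0.125, the smallest that 4 days allow, for this ratio and for each of the 3 others of one sign on all 4 days. At d2 the ratio was 1.03 (0.841 to 1.27) in shLacZ and 1.38 (1.05 to 1.83) in shDis3l2. The 5 ratios were chosen after the levels had been seen.

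**Figure D2:**
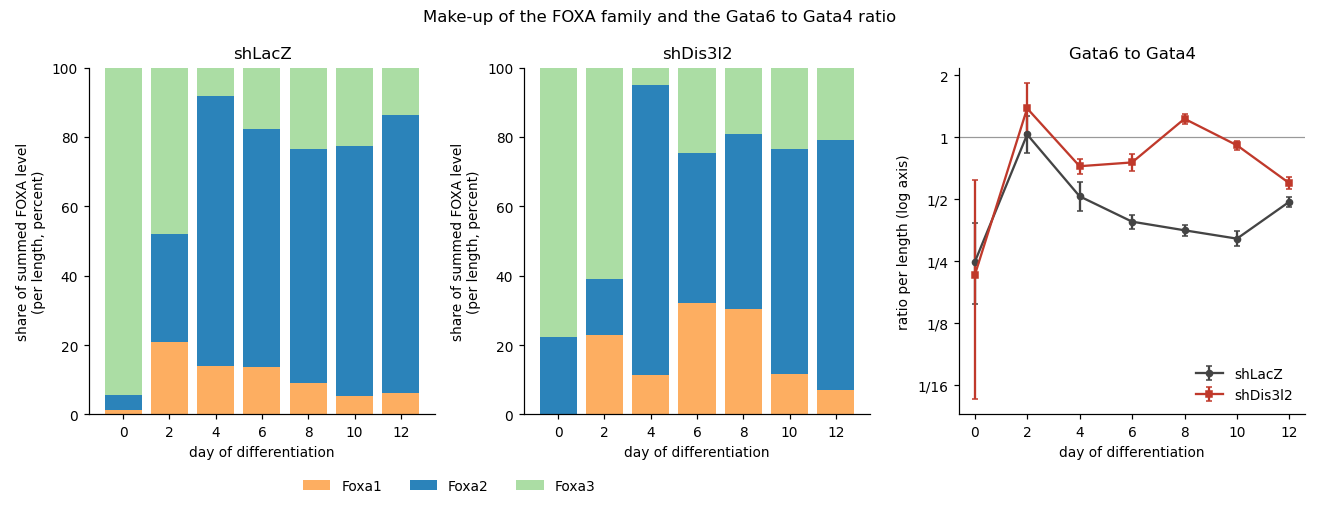
Stacked bars give the share of Foxa1, Foxa2 and Foxa3 in their summed level per length (y axis, percent) by day (x axis) in shLacZ (left) and shDis3l2 (middle), and points give the Gata6 to Gata4 ratio per length (right, log axis) with 95% counting intervals. Foxa3 makes up 94.4% of the family in shLacZ at d0 and Foxa2 80.2% at d12, while the Gata6 to Gata4 ratio from d6 to d12 is 0.321 to 0.486 in shLacZ and 0.597 to 1.23 in shDis3l2.

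Sox7 (ENSMUSG00000063060) lies on the plus strand of chromosome 14, 63943674 to 63950732, and is counted over 3298 exonic bases. In shLacZ it was at 0.175, 2.20, 14.1, 43.5, 36.2, 40.3 and 64.7 CPM. In shDis3l2 it was at 0.151, 1.82, 3.43, 18.9, 11.1, 14.6 and 32.6 CPM. The lines did not differ detectably at d0 or d2 (0.861, 0.185 to 3.39, and 0.829, 0.538 to 1.27). At d4 Sox7 in shDis3l2 was at 0.244 (0.177 to 0.334) of shLacZ, the lowest ratio of the 8 genes on that day, and from d6 to d12 it was at 0.306 to 0.504. Sox7 thus parted from Gata4 at d4, a day on which Gata4 was level between the lines.

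Sox17 (ENSMUSG00000025902), on the minus strand of chromosome 1, 4490931 to 4497354, is counted over 4772 exonic bases. In shLacZ it was at 0.401, 1.74, 13.7, 45.2, 43.8, 90.8 and 109 CPM. In shDis3l2 it was at 0.113, 1.03, 18.3, 18.5, 20.9, 37.1 and 72.9 CPM. At d4 Sox17 was higher in shDis3l2 (1.34, 1.07 to 1.69), on the day Sox7 was lowest against shLacZ, so that the Sox7 to Sox17 ratio per length at d4 was 1.49 (1.118 to 1.99) in shLacZ and 0.272 (0.208 to 0.351) in shDis3l2. From d6 to d10 Sox17 was at 0.408 to 0.476 of shLacZ and at d12 at 0.666 (0.607 to 0.731). Over d6 to d12 the Sox7 to Sox17 ratio overlapped between the lines (0.642 to 1.39 against 0.571 to 1.48, exact permutation p = 0.486, adjusted p = 0.486). The opposite-strand transcript Gm37587 shares exonic bases with Sox17 and held 0 to 11 reads per library.

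The FOXA genes differed from each other in level and in direction. Foxa2 (ENSMUSG00000037025, minus strand of chromosome 2, 148042877 to 148046969, 2370 exonic bases), needed for node, notochord and foregut, was in shLacZ at 0.125, 1.29, 20.3, 22.8, 31.6, 48.2 and 71.3 CPM. In shDis3l2 it was at 0.340, 0.514, 25.7, 7.73, 14.3, 19.9 and 35.2 CPM. The shDis3l2 series dipped after d4 and the shLacZ series did not. In shDis3l2 its level at d6 was 0.301 (0.235 to 0.380) of that at d4, against 1.124 (0.919 to 1.38) in shLacZ. The ratio of the lines was 1.26 (1.05 to 1.53) at d4 and 0.338 (0.262 to 0.433) at d6, and it was 0.414 to 0.494 from d8 to d12. Of the 3 annotated RefSeq promoter windows of Foxa2 (GRCm38.p6, 250 bases before to 50 after a transcript start), 2 held none of the 3 motifs searched. The other, chr2:148045415-148045714 on the minus strand, has its start 1505 bases inside the counted gene and held a GATA motif (AGATAA) and 2 SOX cores (ACAAAG). It is shown 5′ to 3′ with the matches in capitals, on either strand, because it is the Foxa2 window that holds matches, with the GATA motif at -183 and SOX cores at -171 and 29 relative to the start.
Foxa2 promoter window 3: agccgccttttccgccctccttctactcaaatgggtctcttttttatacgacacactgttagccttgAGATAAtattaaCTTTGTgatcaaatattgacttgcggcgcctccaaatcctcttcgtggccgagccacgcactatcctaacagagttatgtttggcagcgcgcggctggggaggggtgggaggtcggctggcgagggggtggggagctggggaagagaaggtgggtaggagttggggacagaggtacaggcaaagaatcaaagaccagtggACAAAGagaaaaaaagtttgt
The motifs were searched on both strands and are held by 11.2% (AGATAA) and 18.7% (ACAAAG) of the 32851 promoter windows of the same length, and a match is a description of the letters, not a binding site.

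Foxa1 (ENSMUSG00000035451, minus strand of chromosome 12, 57540628 to 57546916, 3327 exonic bases), the FOXA paralogue of gut and lung endoderm, stayed low. In shLacZ it had 2 reads at d0, below the floor, and from d2 on was at 1.21, 5.15, 6.46, 5.98, 4.84 and 7.74 CPM. In shDis3l2 it had 0 reads at d0, which allows up to 0.113 CPM, and from d2 on was at 1.03, 4.93, 8.01, 12.1, 4.97 and 4.78 CPM. The lines were within counting error of each other at d2, d4, d6 and d10. Foxa1 in shDis3l2 was 2.02-fold (1.59 to 2.57) higher at d8 and at 0.617 (0.425 to 0.890) of shLacZ at d12, on 51 to 237 reads per library. Its RefSeq promoter window, chr12:57546062-57546361 on the minus strand, starts a transcript 805 bases inside the counted gene. It is shown because the forkhead core (TGTTTAC, found in 3.65% of all windows) is overlapped on each side by a SOX core, with 4 SOX cores in all, in capitals on either strand.
Foxa1 promoter window: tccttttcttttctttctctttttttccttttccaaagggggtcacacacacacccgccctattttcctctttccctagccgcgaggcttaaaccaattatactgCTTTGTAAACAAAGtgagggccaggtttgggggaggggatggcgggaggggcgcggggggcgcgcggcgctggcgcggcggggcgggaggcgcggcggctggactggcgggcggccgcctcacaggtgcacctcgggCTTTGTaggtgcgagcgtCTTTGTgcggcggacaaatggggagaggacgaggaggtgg

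Foxa3 (ENSMUSG00000040891, minus strand of chromosome 7, 19013284 to 19023538, 2037 exonic bases), the FOXA paralogue of liver and gut, was in shLacZ at 2.33, 1.71, 1.81, 5.11, 9.47, 12.95 and 10.4 CPM. In shDis3l2 it was at 1.02, 1.68, 1.30, 3.77, 4.68, 6.20 and 8.80 CPM. It passed neither step before d4, and its lower level in shDis3l2 was outside counting error at d0, d8 (0.494, 0.378 to 0.643) and d10 (0.479, 0.368 to 0.624) but not at d2, d4, d6 or d12. Its promoter window held none of the 3 motifs.

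Per length, the make-up of the FOXA family differed between d0 and d12. In shLacZ at d0 Foxa3 made up 94.4% of the summed FOXA level, on 100 reads, and at d12 Foxa2 made up 80.2%, on 902 reads. In shDis3l2 at d6 the family was mixed, with 32.0% Foxa1, 43.4% Foxa2 and 24.6% Foxa3, where shLacZ had 13.8%, 68.4% and 17.8%. By d12 shDis3l2 had 6.96% Foxa1, 72.1% Foxa2 and 20.96% Foxa3. The Foxa1 to Foxa2 ratio was higher in shDis3l2 on 4 of 4 days from d6 to d12 (0.0716 to 0.202 in shLacZ, 0.0966 to 0.738 in shDis3l2), with ranges that overlapped between the lines (exact permutation p = 0.143, adjusted p = 0.179). The Foxa3 to Foxa2 ratio was likewise higher on 4 of 4 days, with 0.170 to 0.349 against 0.291 to 0.568 and an exact permutation p of 0.114 (adjusted p = 0.179).

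Hnf4a (ENSMUSG00000017950) lies on the plus strand of chromosome 2, 163506808 to 163572910, and is counted over 4828 exonic bases. In shLacZ it was at 2.03, 3.11, 14.8, 54.6, 102, 100.7 and 88.4 CPM. In shDis3l2 it was at 0.906, 1.68, 6.28, 13.01, 32.5, 30.5 and 33.8 CPM. Of the 8 genes, Hnf4a alone had a ratio whose interval lay below 1 on all 7 days, although at d0 the ratio moved from 0.446 with library totals to 0.585 with DESeq2 size factors. The ratio was 0.425 (0.327 to 0.555) at d4, 0.238 (0.197 to 0.286) at d6 and 0.319 (0.290 to 0.349) at d8. It was 0.303 (0.273 to 0.337) by d10 and 0.383 (0.338 to 0.433) by d12. Relative to Gata4, Hnf4a was lower in shDis3l2 on 4 of 4 late days, with a ratio per length of 0.179 to 0.334 in shLacZ and 0.107 to 0.206 in shDis3l2 (exact permutation p = 0.0571, adjusted p = 0.143). The antisense transcript Hnf4aos shares no exonic bases with Hnf4a and held at most 3 reads per library.

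Hnf4a has 2 annotated promoters, and the gene counts do not separate their transcripts. Of the RefSeq windows (GRCm38.p6, plus strand), chr2:163506607-163506906 has a GATA motif at -52 relative to the start, and the other, whose start lies 40347 bases into the gene, held none of the 3 motifs. The window with the match is shown, with the match in capitals, since Hnf4a and Gata4 are compared above.
Hnf4a promoter window 1: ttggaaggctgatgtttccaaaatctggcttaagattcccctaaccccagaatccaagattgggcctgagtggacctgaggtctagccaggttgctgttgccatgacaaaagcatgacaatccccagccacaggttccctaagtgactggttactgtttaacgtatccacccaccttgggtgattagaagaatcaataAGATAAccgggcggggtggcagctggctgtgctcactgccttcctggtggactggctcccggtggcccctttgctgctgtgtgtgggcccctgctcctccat
Windows were matched for 4 of the 8 genes, Foxa1, Foxa2, Foxa3 and Hnf4a.

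Differences between the lines were tested with edgeR across all genes, with the days standing in as replicates of a line within 1 culture series, so that the p-values measure only the spread among these libraries. With the day as a block and the 4 days from d6 onward, 6 of the 8 genes were lower in shDis3l2 and 0 higher, where 18.7% of the 17164 genes tested were lower and 19.6% higher. These 4 days were chosen because earlier results of these data placed the large differences between the lines there, so the calls partly restate that choice. Hnf4a had the largest difference, with a log2 fold change of -1.70 ± 0.11 (SE, edgeR adjusted p = 0.00034). Sox7 followed with -1.34 ± 0.13 (edgeR adjusted p = 0.00071), Foxa2 with -1.24 ± 0.11 (edgeR adjusted p = 0.00057), Sox17 with -1.06 ± 0.12 (edgeR adjusted p = 0.0013) and Gata4 with -0.90 ± 0.06 (edgeR adjusted p = 0.00036), each lower on 4 of 4 days. Foxa3 was at -0.71 ± 0.19 (edgeR adjusted p = 0.024), and it no longer passed without d8 or without d10 (edgeR adjusted p of 0.0101 to 0.174 over all alternatives). Without the day block Sox7 and Hnf4a alone passed. Gata6, at 0.25 ± 0.21 (edgeR adjusted p = 0.398), and Foxa1, at 0.20 ± 0.28 (edgeR adjusted p = 0.613), did not pass, and each was above shLacZ on some of the 4 days and below it on others. The call on Gata6 rested on d12, since without that day its log2 fold change was 0.50 and passed (edgeR adjusted p = 0.0491). The estimate for Foxa1 without d8 was -0.12.

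**Figure D3:**
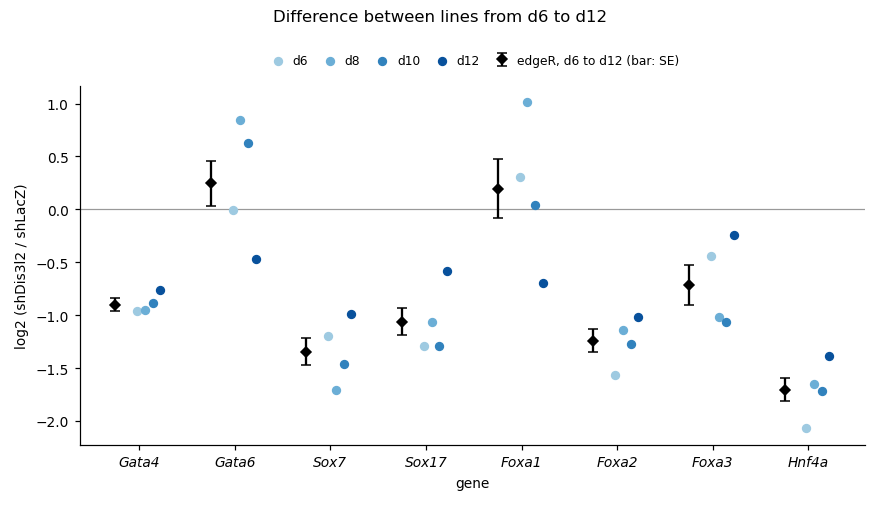
Log2 ratio of shDis3l2 to shLacZ (y axis) for each gene (x axis), with black diamonds for the edgeR estimate over d6 to d12 (bar, SE) and blue points for the ratio of CPM on each of the 4 days. All 4 days lie below 0 for Gata4, Sox7, Sox17, Foxa2, Foxa3 and Hnf4a, and on both sides of 0 for Gata6 and Foxa1.

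Over all 7 days the same test called 4 of the 8 genes lower, Hnf4a (-1.50 ± 0.15, edgeR adjusted p = 0.0079), Sox7 (-1.29 ± 0.21, edgeR adjusted p = 0.0162), Gata4 (-0.85 ± 0.14, edgeR adjusted p = 0.0167) and Sox17 (-0.86 ± 0.21, edgeR adjusted p = 0.0452), where 3.82% of 20050 genes were lower. Sox17 passed in no fit that left out a day other than d4. Without d6, d8, d10 or d12 only Hnf4a passed, and 8 to 102 genes in all passed in those fits against 1147 with all days. A further test split the days at d6, where the late days chosen above begin. The difference between the lines itself moved toward lower levels in shDis3l2 from d0-d4 to d6-d12 for 2 of the 8 genes, Foxa2 (-1.40 ± 0.39, edgeR adjusted p = 0.0483) and Hnf4a (-0.75 ± 0.21, edgeR adjusted p = 0.0491), against 5.24% of all genes. Neither passed with library sizes or DESeq2 size factors in place of TMM, without the day block, or without d0, d4, d6, d8 or d10. The other 6 genes had changes of -1.01 (Sox17) to 0.31 (Foxa1), with edgeR adjusted p values of 0.0875 and above. Dis3l2 itself changed by 1.61 (edgeR adjusted p = 0.0112) in the opposite direction, toward the shLacZ level. Between the lines Dis3l2 did not pass over d6 to d12 (-0.35 ± 0.16, edgeR adjusted p = 0.126) or over all 7 days (-1.08 ± 0.30, edgeR adjusted p = 0.0599).

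Day by day, with 1 library per line, the members at least 3-fold apart were few, and all were lower in shDis3l2. Among the 3 genes that reached 1 CPM at d0, Gata4 alone passed (0.279, 0.171 to 0.439), where 2.36% of protein-coding genes were lower and 0.6% higher, and with DESeq2 size factors its ratio was 0.366 and it did not pass. At d2 none did, against 0.144% lower and 0.114% higher. At d4 it was Sox7 (1.69% lower, 0.384% higher), at d6 Hnf4a (4.27% lower, 2.73% higher), at d8 Sox7 and Hnf4a (3.77% lower, 5.5% higher) and at d10 Hnf4a (3.17% lower, 8.68% higher). At d12 none passed, against 1.42% lower and 8.17% higher, and the median log2 ratio of the 8 genes was -0.73, compared with -1.17 at d10.

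**Figure D4:**
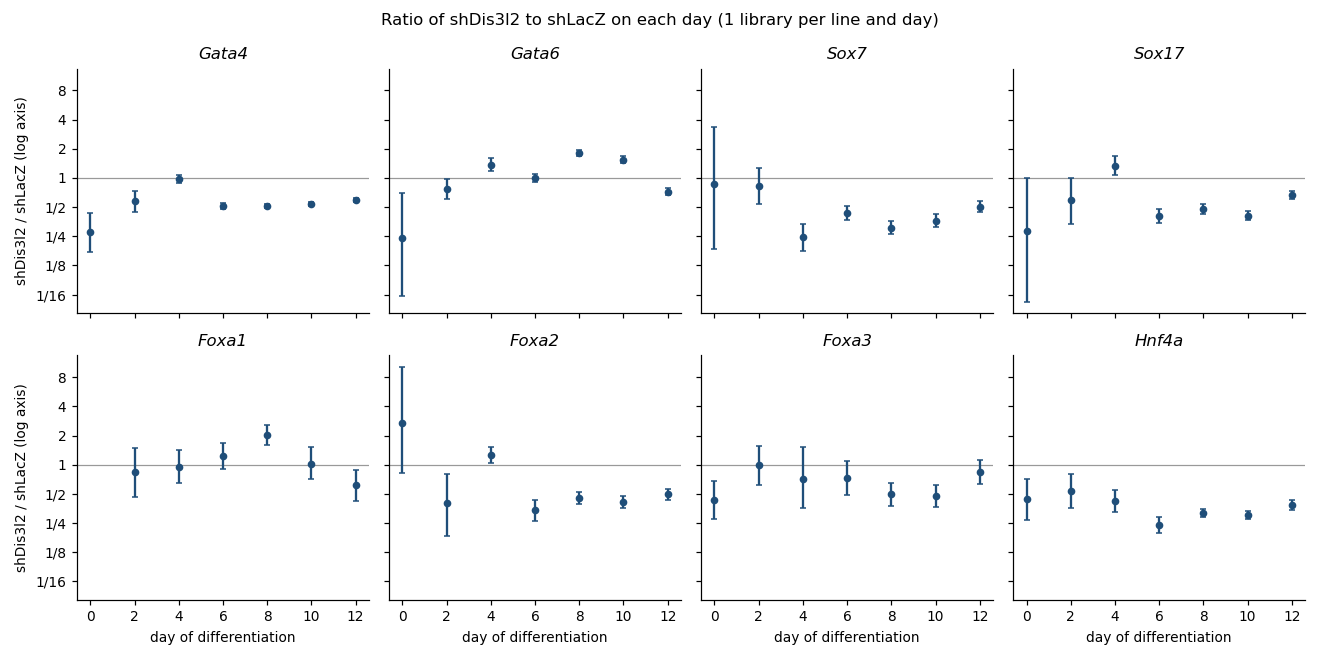
Ratio of shDis3l2 to shLacZ (y axis, log scale) on each day (x axis) for the 8 genes, with 95% Clopper-Pearson intervals; Foxa1 has no ratio at d0, where both libraries are at or below 3 reads. Hnf4a lies below 1 on all 7 days, Gata6, Sox17 and Foxa2 lie above 1 at d4 with intervals that exclude it, and the late ratios of Gata4 stay between 0.514 and 0.588.

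The increase over time was set against the spread between the lines, with the lines standing in as replicates of a day. From d0 to d2, 5 of the 8 genes rose, Gata6, Sox7, Foxa1, Sox17 and Gata4, where 34.5% of all genes rose. The call on Sox17 was lost without the shLacZ or shDis3l2 library of d0 or the shLacZ library of d2 (edgeR adjusted p of 0.0525 to 0.0707), and with library sizes 7 of the 8 passed. Gata6 had a log2 change of 3.24 ± 0.48 (edgeR adjusted p = 0.00020) and Gata4 of 1.16 ± 0.30 (edgeR adjusted p = 0.0057), and Foxa1 went from 2 and 0 reads to 32 and 22. From d2 to d4, 7 of the 8 rose, against 9.25% of all genes, by between 1.80 ± 0.41 (Sox7, edgeR adjusted p = 0.0142) and 4.86 ± 0.60 (Foxa2, edgeR adjusted p = 0.00093). Foxa3 was the exception at -0.16 ± 0.37 (edgeR adjusted p = 0.818). Leaving out 1 library left 5 or 6 calls, with Foxa1 lost in 3 of 4 cases (edgeR adjusted p of 0.0507 to 0.0976) and Sox7 without either shLacZ library (edgeR adjusted p of 0.0993 and 0.106).

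From d4 to d6, 4 of the 8 rose, against 7.54% of all genes. These were Sox7 (2.05 ± 0.38, edgeR adjusted p = 0.0081), Hnf4a (1.55 ± 0.28, edgeR adjusted p = 0.0077), Foxa3 (1.54 ± 0.37, edgeR adjusted p = 0.0234) and Gata4 (0.95 ± 0.26, edgeR adjusted p = 0.0364). Leaving out any of the 4 libraries of d4 and d6 left 1 or 2 of them, and Foxa3 in none of these fits. The later steps called 0 of the 8, against 0.554% of all genes from d6 to d8 and 0% from d8 to d10 and from d10 to d12. At an unadjusted p under 0.05 edgeR had 1 of the 8 in each step, Hnf4a, Sox17 and Sox7 in turn, beside 2520, 820 and 558 of all genes, and DESeq2 called 1 of the 8 from d6 to d8 and 0 in the other 2 steps.

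Per length, the order of the 8 genes at d12 in shLacZ was Gata4 (102 CPM per kb), Gata6 (49.8), Foxa2 (30.1), Sox17 (22.9), Sox7 (19.6), Hnf4a (18.3), Foxa3 (5.11) and Foxa1 (2.33). Sox7 and Hnf4a did not differ beyond counting error (ratio 1.07, 0.967 to 1.19). In shDis3l2 at d12 it was Gata4 (60.3 CPM per kb), Gata6 (36.0), Sox17 (15.3), Foxa2 (14.9), Sox7 (9.88), Hnf4a (7.002), Foxa3 (4.32) and Foxa1 (1.44), with Sox17 and Foxa2 not separated (1.03, 0.909 to 1.17). At d0 Foxa3 was first in both lines, at 1.14 CPM per kb in shLacZ and 0.501 in shDis3l2, ahead of Gata4 at 0.796 and 0.223. At d6 Hnf4a (11.3 CPM per kb) was above Foxa2 in shLacZ (1.17, 1.03 to 1.35), while in shDis3l2 it (2.69) was below Foxa2 but not separated from it (Foxa2 to Hnf4a 1.21, 0.9095 to 1.602).

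Across the 14 libraries the 28 pairs of members correlated with Pearson's r of 0.598 to 0.989 (median 0.907) on log2(CPM + 1), a description of series that share the same days and libraries. Among the 8 libraries of d6 to d12 the range was -0.559 to 0.988 (median 0.685). Gata4 and Foxa2 were the closest pair there (0.988), and Foxa1 was negative with every member but Gata6 (0.0668). Gata6 and Gata4, at 0.970 over all 14 libraries, were at 0.379 in the late 8.

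The genes most like each member over the 14 libraries were sought among 12854 genes. Gata4 was closest to Cnppd1 (r = 0.992), Sox17 (0.989) and Rnf103 (0.989), and Sox17 to Gata4 (0.989), Fhdc1 (0.989) and Ap3d1 (0.987). Gata6 was closest to Pdgfra (0.994), a receptor that marks primitive endoderm and mesoderm, followed by Adcy6 (0.991) and Snx33 (0.989). Sox7 was close to Nxf7 (0.980) and Fhdc1 (0.976), and Foxa2 was closest to Bace2 (0.973), Sox17 (0.973) and Ap3d1 (0.968). Foxa1 was closest to Zfp202 (0.980), Tpm4 (0.978) and Prag1 (0.977), and Foxa3 to Npas2 (0.981), Sumf1 (0.980) and Fgfr4 (0.978), a receptor of liver. Hnf4a was closest to Atp6v0a1 (0.993), Nostrin (0.991) and Pla2g12b (0.990).

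The wider endoderm program was read from lists. Of 16 other endoderm transcription factors, 14 were tested over d6 to d12, and 10 were lower in shDis3l2 and 0 higher, with a median log2 fold change of -0.99, close to the -0.98 of the 8 members, while the median of all genes was 0.02. Eomes (-2.72 ± 0.33, edgeR adjusted p = 0.0015), Mixl1 (-2.95 ± 0.59, edgeR adjusted p = 0.0087) and Sall4 (-1.003 ± 0.17, edgeR adjusted p = 0.0044) were the most abundant of them. Eomes, which works ahead of Foxa2 and Sox17 in the primitive streak, was at 300.2 CPM in shLacZ and 571 in shDis3l2 at d4, then at 37.0 and 7.73 CPM at d6, and Mixl1 at 161 and 329, then at 19.2 and 4.05 CPM. Both were therefore higher in shDis3l2 at d4 and lower at d6, as Foxa2 was. Hnf4g was at or under 3 reads in every library.

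Of the 12 visceral endoderm markers all 12 were lower over d6 to d12, with a median of -1.82. Apob (-2.25 ± 0.11, edgeR adjusted p = 0.00019), the apolipoprotein of secreted lipid particles, and Cubn (-2.13 ± 0.11, edgeR adjusted p = 0.00020) and Lrp2 (-1.74 ± 0.15, edgeR adjusted p = 0.00059), endocytic receptors, were the most abundant. Their summed level was 21.2 CPM in shLacZ and 27.0 in shDis3l2 at d0, 1672 and 527 at d4, and 4849 to 9047 in shLacZ against 999 to 2672 in shDis3l2 from d6 to d12. Like Hnf4a and Sox7, and unlike Gata4, Sox17 and Foxa2, the sum of this list was lower in shDis3l2 at d4. That was not particular to visceral endoderm. The parietal endoderm list also summed lower at d4 (2342 CPM in shLacZ, 1238 in shDis3l2). So did the definitive endoderm and gut epithelium list (2042 and 1285), whereas the other endoderm transcription factors summed higher in shDis3l2 (881 and 1462).

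Parietal endoderm markers were lower in 8 of 12, with 0 higher and a median of -0.89. The most abundant were the basement membrane genes Col4a1 (-1.34 ± 0.09, edgeR adjusted p = 0.00034), Col4a2 (-1.30 ± 0.10, edgeR adjusted p = 0.00045) and Lama1 (-1.27 ± 0.14, edgeR adjusted p = 0.0011). Nid1 (0.69 ± 0.29, edgeR adjusted p = 0.103) and Thbd (-0.56 ± 0.40, edgeR adjusted p = 0.308) did not pass. Neither did Plat (-0.31 ± 0.14, edgeR adjusted p = 0.130) or Krt19 (0.04 ± 0.12, edgeR adjusted p = 0.806). The summed level of the 12 parietal markers from d6 to d12 was 9541 to 51857 CPM in shLacZ and 4298 to 26738 in shDis3l2. Markers of definitive endoderm and gut epithelium were lower in 8 of 11 tested, with 0 higher and a median of -1.24. Their most abundant members, the epithelial genes Cldn6 (-1.37 ± 0.12, edgeR adjusted p = 0.00056), Cdh1 (-1.24 ± 0.10, edgeR adjusted p = 0.00055) and Krt18 (-0.61 ± 0.18, edgeR adjusted p = 0.0337), are made in many epithelia. The list summed to 2223 to 2762 CPM in shLacZ and 1020 to 1581 in shDis3l2 over these days.

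**Figure D5:**
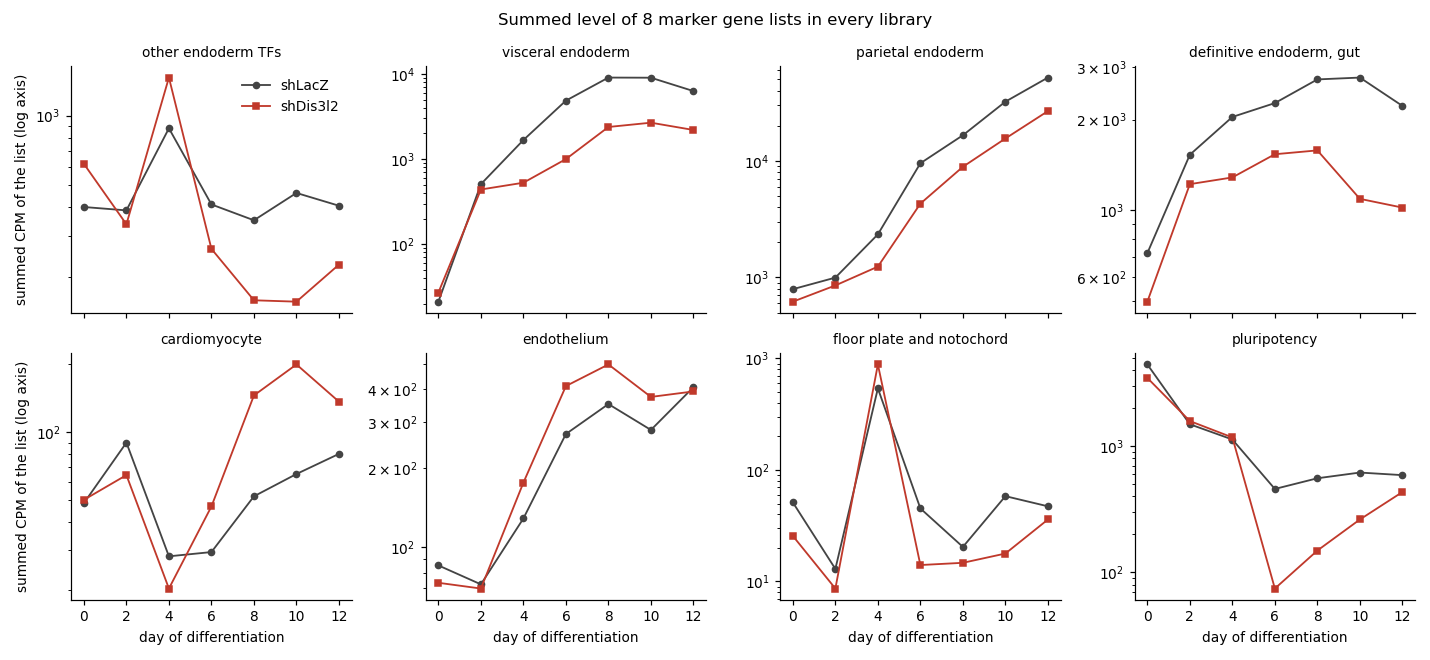
Summed CPM of 8 marker lists (y axis, log scale per panel) by day (x axis) in shLacZ (grey circles) and shDis3l2 (red squares), 1 library per point. Visceral endoderm markers reach 9047 (shLacZ) and 2672 CPM (shDis3l2), cardiomyocyte markers reach 199.9 CPM in shDis3l2, and the floor plate and notochord sum peaks at d4 at 539 and 883 CPM.

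Other cell types that use the same factors were measured beside them, and their part in the results was not tested. For the GATA pair, 6 of 9 cardiomyocyte markers tested were higher in shDis3l2 over d6 to d12 and 0 lower, with a median of 1.65. Tnnt2 (2.64 ± 0.30, edgeR adjusted p = 0.0012) and Myh6 (1.65 ± 0.36, edgeR adjusted p = 0.0117) were among them, and Ttn (0.40 ± 0.32, edgeR adjusted p = 0.360) was not. From d6 to d12 the 10 listed markers summed to 29.4 to 80.1 CPM in shLacZ and to 46.8 to 199.9 CPM in shDis3l2, highest at d10, when Gata6 in shDis3l2 was also highest. The same list summed to 48.5 (shLacZ) and 50.1 CPM (shDis3l2) in undifferentiated cells at d0, and to 89.9 and 64.5 CPM at d2. The sum is therefore not specific to cardiomyocytes. Of the listed cardiac transcription factors, Nkx2-5 reached at most 0.754 CPM in any library and was not among the genes tested. Tbx5 was higher in shDis3l2 (2.28 ± 0.29, edgeR adjusted p = 0.0017) and reached at most 3.46 CPM.

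For the SOX pair, 2 of 10 endothelial markers were higher and 0 lower, with a median of -0.10, a share near the 19.6% of all genes that were higher. Kdr, also made in mesoderm, was higher (1.61 ± 0.36, edgeR adjusted p = 0.0127), while Cdh5 (-0.53 ± 0.25, edgeR adjusted p = 0.141) and Flt1 (-0.26 ± 0.16, edgeR adjusted p = 0.244) did not pass. From d6 to d12 they summed to 270.3 to 408 CPM in shLacZ and 374 to 498 CPM in shDis3l2, the higher in shDis3l2 at d6, d8 and d10, days on which Sox7 and Sox17 were lower. For Foxa1 and Foxa2, floor plate and notochord markers had 1 of 5 tested higher and 2 lower, with a median of -0.01, where 19.6% of all genes were higher and 18.7% lower. The higher gene was Shh (1.07 ± 0.31, edgeR adjusted p = 0.0305). T (-2.40 ± 0.43, edgeR adjusted p = 0.0057) and Ntn1 (-1.40 ± 0.29, edgeR adjusted p = 0.0099) were lower and Chrd was at -0.01 ± 0.19. T, which also marks the primitive streak, was at 486 CPM in shLacZ and 795 in shDis3l2 at d4, then at 29.9 and 6.50 CPM at d6. Pluripotency markers were lower in 6 of 8, with 0 higher and a median of -1.25, including Pou5f1 (-2.32 ± 0.39, edgeR adjusted p = 0.0044) and Tfcp2l1 (-1.07 ± 0.20, edgeR adjusted p = 0.0068), while Dppa5a (-1.14 ± 0.49, edgeR adjusted p = 0.105) did not pass.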

How the data were processed

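PolyA RNA of 14 libraries was analysed. Per the study's methods, the authors aligned reads to GRCm38 (Ensembl) with Subread, counted them per gene with featureCounts and made CPM with edgeR. The deposited counts are whole reads per gene without normalization, and the strand setting is not given in the sources used here. The deposited CPM equal the CPM of the counts plus a prior over the 16181 listed genes, so the CPM used here, over all 50686 counted genes, are lower. The deposited gene length column gave levels per length. Gene positions are those of the count table. The deposited columns of the knockdown line carry a construct code in their names, which a supplementary sheet pairs with shDIS3L2.

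The members, the 8 marker lists and the tests were chosen with earlier results of these data known. Named singly were the members, Dis3l2, the 3 genes most like each member (Pearson's r of log2(CPM + 1), pseudocount 1) and the 3 most abundant genes of each list. A few other genes of the lists, such as the parietal markers that did not pass, are named besides. The quasi-likelihood test of edgeR 4.0.16 (R 4.3.3), after filterByExpr and TMM scaling and with Benjamini-Hochberg adjustment over all genes tested (threshold 0.05), was fitted with day as a block between lines and with line as a block between days. The code was also run on simulated counts drawn independently for each library. Successive days of a culture series are not independent, so that run does not check the tests for this design. DESeq2 1.42.0, other scalings, no filter, no block and leaving out each day or library were the alternatives. Folds on single days used a 3-fold limit with 1 CPM in either library and 95% Clopper-Pearson intervals. Intervals and the floor of 3 reads cover counting error only. The SE printed with edgeR estimates was derived as the absolute log2 fold change divided by the square root of the F statistic of its test. Other steps used Python 3.11.15, scipy 1.17.1 and pandas 2.3.3. Promoter sequences are from RefSeq, GRCm38.p6. One gene that the naming rule picks is not reported here.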

Additional observations from a re-analysis of the deposited data

Results flagged for a closer look

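The difference between the lines changed from d0-d4 to d6-d12 by a test of the change itself for Foxa2 (-1.40 on the log2 scale, edgeR adjusted p = 0.0483) and Hnf4a (-0.75, edgeR adjusted p = 0.0491), toward lower levels in shDis3l2, and for Dis3l2 (1.61, edgeR adjusted p = 0.0112), toward the shLacZ level. Gata6 moved in opposite directions in the lines from d10 to d12, 1.72-fold up in shLacZ and to 0.809 of its level in shDis3l2, with counting intervals that exclude no change in both. That difference was not tested.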

How the results depend on the processing

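Of the alternatives, leaving out the day block left the fewest members called between the lines. Over all genes, leaving out a single late day such as d8 or d10 also removed many calls. The tests have no replicate cultures behind them. Over the 7 days the members called went from 4 to 0 without the day block and to 1 to 5 when a day was left out. All genes called went from 1147 to 2522 with DESeq2, 2093 without the filter, 0 without the block, 2190 without d0 and 8 to 102 without d6, d8, d10 or d12. Over d6 to d12 the 6 members became 2 without the block and 5 to 7 without a day, and the 6574 genes 3341 without the block, 3449 without d8 and 3336 without d10. For the change of the difference the 2 members became 0 with library sizes, with DESeq2 size factors and without the block, and 0 to 1 without a day. All genes called there went from 2023 to 3279 without the filter, 0 without the block and 524 to 1209 without d0, d2, d8 or d10.

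From d0 to d2, 3 members in place of 5 were called without the line block and 7 with library sizes, and from d2 to d4, 5 in place of 7 without the block and 5 to 6 without a library. From d4 to d6 the 4 became 0 without it and 1 to 2 without a library. From d6 to d8, 1 in place of 0 was called by DESeq2 and without the filter. All genes called from d2 to d4 went from 3506 to 2170 without the line block and 1032 to 2173 without a library, and from d4 to d6 from 2762 to 1344 and 309 to 1782. From d6 to d8 they went from 146 to 559 with DESeq2, 439 without the filter, 86 with library sizes, 8 without the line block and 1 to 33 without a library. From d8 to d10 and d10 to d12 the count of 0 became 49 and 3 with DESeq2 and 43 and 1 without the filter.

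With 2-fold in place of 3-fold, the members apart were 3, 1, 2, 4, 6, 5 and 2 on the 7 days in order, all lower in shDis3l2 but for Foxa1 at d8, where 1.2% to 10.3% of protein-coding genes by day were lower and 0.554% to 14.5% higher. At the 3-fold limit, the 1 member apart at d0 became 0 with DESeq2 size factors and 4 without a minimum CPM. The 1 member at d6 became 2 with TMM at that limit. Directions that turned were of members that had not passed. Over the 7 days Gata6 was at -0.062 to 0.19 and Foxa1 at -0.19 to 0.17 over the alternatives, and over d6 to d12 Foxa1 was at -0.12 to 0.49. For the change of the difference Gata6 was at -0.19 and Sox7 at 0.16 without the block, and without a day Gata4 was at -0.59 to 0.10, Sox7 at -1.23 to 0.38 and Foxa3 at -0.54 to 0.0011. The cause was not tested. Deposited CPM were 1.11 to 1.34 times those printed, over members with at least 21 reads. At d0, 5 of the members had at most 25 reads in either line.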
